A study of Homo sapiens with 12 samples.

Results

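The SLC25 carriers were followed in HCT116 cells, a human colon carcinoma line, in libraries made with and without removal of ribosomal RNA sequence. The members were the genes whose symbol is SLC25A followed by a number, which gave 48 of the 57134 genes in the table. At least 1 library held a count for 44 of them, and SLC25A2, SLC25A18, SLC25A31 and SLC25A47 were at 0 in all 12 libraries.

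All 12 libraries came from HCT116 and were made with MATQ-seq, a protocol for total RNA of very small inputs. Untreated libraries were 4 single cells and 2 mini-bulk samples, and DASHed libraries, which had rRNA depleted with scDASH, were again 4 single cells and 2 mini-bulk samples. Single cells were sorted by FACS. DASH uses Cas9 and guide RNAs to cut unwanted sequence out of a finished library. The labels do not say how many cells a mini-bulk sample held, or whether samples of a group came from separate cultures, so a p-value here reflects the spread between the sampled libraries alone, and that spread may be technical.

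SLC25 proteins sit mainly in the inner mitochondrial membrane and exchange metabolites, nucleotides, cofactors and ions between the cytosol and the matrix. They are built from repeats of a shared module and move their substrates mostly as antiporters. In a dividing epithelial line they carry ADP and ATP, phosphate, citrate and amino acids, and they supply iron and glutathione to the matrix.

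Untreated libraries held 5545355 to 6026584 estimated counts and DASHed libraries 837614 to 1573651. Levels are given below as nuclear CPM, counts scaled to a common total (CPM) after rRNA genes, 4 lincRNA genes inside 18S rRNA and mitochondrial genes are left out. That remainder was 12.7 to 24.9% of the counts in untreated and 56.2 to 68.8% in DASHed libraries. A count of 3 in a library, used as the floor, corresponds to 2.18 to 5.90 nuclear CPM. The keratin genes KRT8, KRT18 and KRT19, which mark epithelial cells, had counts in all 12 libraries, EPCAM was at 0 in at least 1 library and VIL1 reached only 1.31 nuclear CPM. CD3E, HBB and ALB were at 0 throughout, and the 9 markers of other cell types summed to at most 54.3 nuclear CPM in a library, where COL1A1 alone reached 47.5.

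Coding sequences of 5 members are shown here to make base composition visible. SLC25A29 and SLC25A36 are the members called with the largest fold changes each way in mini-bulk, and SLC25A6, SLC25A5 and SLC25A4 are the translocase genes compared further on. Each line is the last 90 coding bases before the stop codon of the reference transcript (GENCODE v29, GRCh38), on the strand of the gene, and capitals mark G and C. SLC25A29 lies at chr14:100291111-100306547 on the minus strand, SLC25A6 at chrX:1386152-1392724 on the minus strand, SLC25A5 at chrX:119468400-119471319 on the plus strand, SLC25A4 at chr4:185143241-185150382 on the plus strand and SLC25A36 at chr3:140941830-140980961 on the plus strand.
SLC25A29: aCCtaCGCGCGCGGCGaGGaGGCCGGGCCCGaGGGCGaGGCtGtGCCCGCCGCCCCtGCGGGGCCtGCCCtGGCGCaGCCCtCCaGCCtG
SLC25A6: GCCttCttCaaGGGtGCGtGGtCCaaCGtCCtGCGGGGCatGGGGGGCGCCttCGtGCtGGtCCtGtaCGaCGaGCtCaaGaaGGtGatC
SLC25A5: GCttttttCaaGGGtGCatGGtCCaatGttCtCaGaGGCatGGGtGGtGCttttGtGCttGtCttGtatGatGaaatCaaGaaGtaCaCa
SLC25A4: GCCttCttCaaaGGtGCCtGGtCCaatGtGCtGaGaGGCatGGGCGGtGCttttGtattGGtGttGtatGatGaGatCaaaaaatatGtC
SLC25A36: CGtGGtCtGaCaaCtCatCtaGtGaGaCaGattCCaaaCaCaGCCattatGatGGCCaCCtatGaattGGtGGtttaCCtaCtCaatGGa

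G and C make up 82.2% of the printed bases of SLC25A29, 63.3% of those of SLC25A6, 43.3% of those of SLC25A5, 45.6% of those of SLC25A4 and 44.4% of those of SLC25A36. This window was chosen after the sequences were seen. The first 90 coding bases held 63.3% G and C in each of SLC25A29, SLC25A6 and SLC25A5, 66.7% in SLC25A4 and 53.3% in SLC25A36, so the contrast depends on the window, and neither window orders the 5 members as their whole transcripts do. SLC25A5 and SLC25A6, the genes of the adenine nucleotide translocases ANT2 and ANT3, have coding sequences of 894 bases that are identical at 78.75% of positions. Of their 190 differences, 150 fall on the last base of a codon. Over all codons of the coding sequence, the share of last bases that are G or C is 90.3% in SLC25A6 and 59.7% in SLC25A5, against 90.1% in SLC25A29 and 32.3% in SLC25A36.

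A few members held most of the counts. Per kb of reference transcript, and averaged over the 4 mini-bulk libraries, SLC25A39 stood at 238, SLC25A6 at 121, SLC25A3 at 96.5, SLC25A10 at 85.4, SLC25A22 at 79.6 and SLC25A37 at 62.4 nuclear CPM per kb. SLC25A39 is needed for glutathione import into mitochondria, SLC25A3 carries phosphate, SLC25A10 carries dicarboxylates, SLC25A22 carries glutamate and SLC25A37, mitoferrin-1, brings iron into the matrix. The 6 members with the most counts held 57.5% of the members' counts in untreated and 65.7% in DASHed mini-bulk, and 60.8% and 65.0% in untreated and DASHed single cells.

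The order of levels depended on the library type. In untreated mini-bulk, SLC25A39 had 160.6 and 169.1 nuclear CPM per kb and SLC25A3 had 112 and 123, and SLC25A6 followed with 78.3 and 90.2. SLC25A22, with 44.97 and 61.6, and SLC25A37, with 49.6 and 50.6, overlapped. In DASHed mini-bulk SLC25A39 again stood first, at 264 and 357, and SLC25A6 second, at 133 and 182. SLC25A22, with 93.7 and 118, and SLC25A10, with 96.4 and 107, overlapped there, and SLC25A3 ranked 6, with 63.4 and 86.9.

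**Figure D1:**
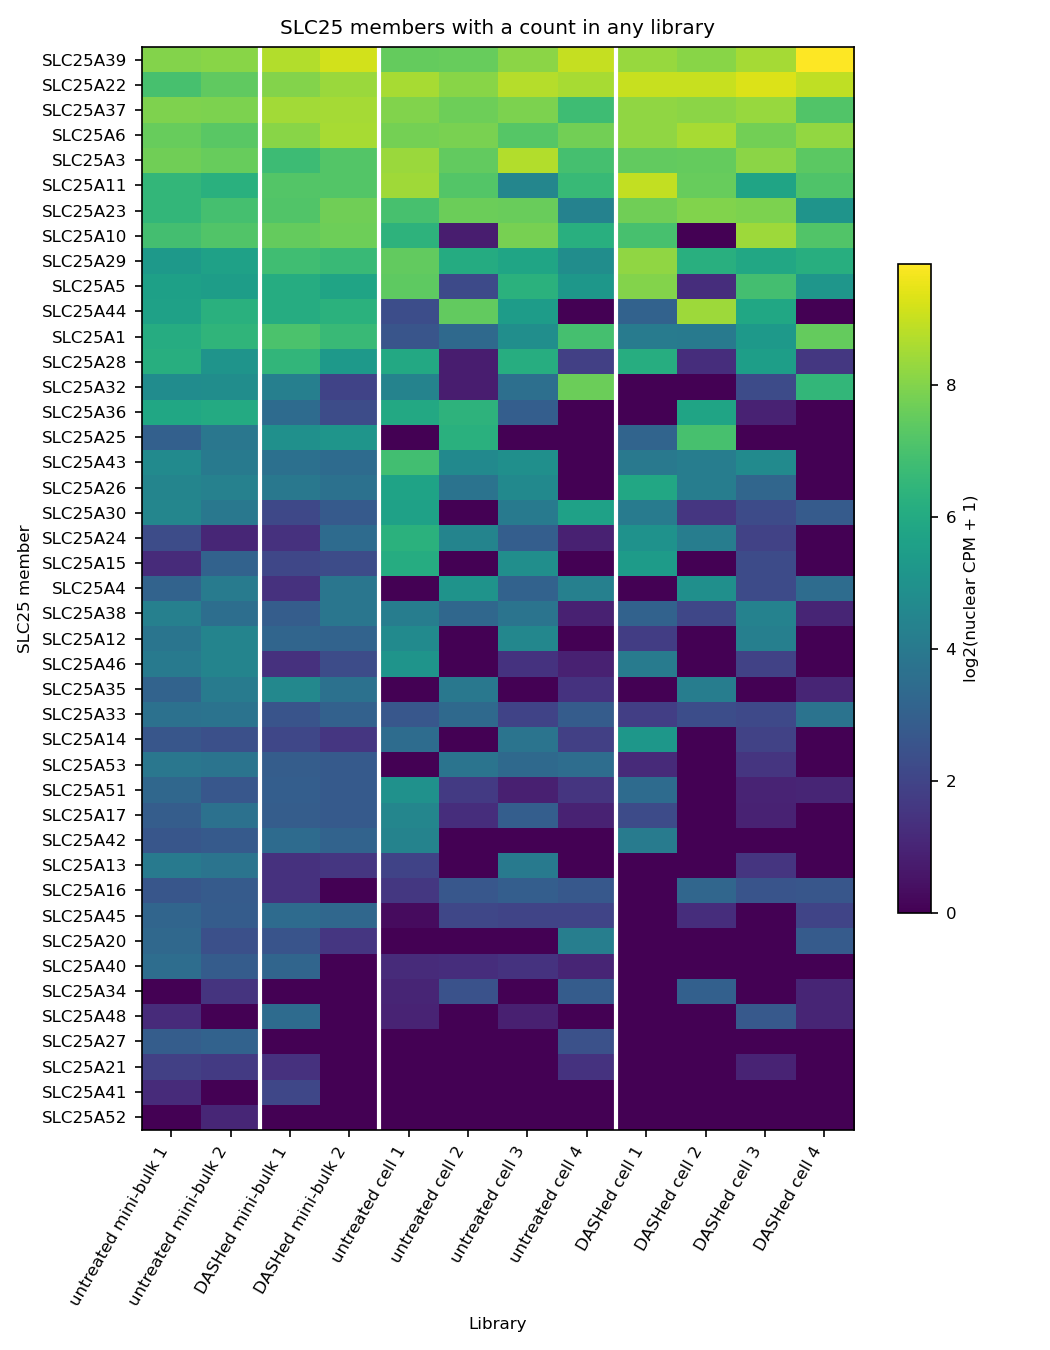
Levels of 43 of the 44 SLC25 members with a count in any library (1 is not drawn), as log2 of nuclear CPM plus 1 (colour), in rows by member and columns by library; white lines separate the 4 groups. SLC25A39, SLC25A22, SLC25A37, SLC25A6 and SLC25A3 are bright in all 12 libraries, and many members lower down are at 0 in some cells but not in mini-bulk.

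The members together took a larger share of counts in DASHed libraries, also outside rRNA. Their share of all counts was 0.0288% ± 0.00501 (SD, n = 2) in untreated and 0.164% ± 0.0224 (SD, n = 2) in DASHed mini-bulk, a ratio of 5.70, which includes the removal of rRNA counts from the total. Of the nuclear counts they held 0.199 and 0.203% in untreated and 0.264 and 0.296% in DASHed mini-bulk, a ratio of 1.39. The untreated cells held 0.198 to 0.306% and the DASHed cells 0.279 to 0.357%, so the groups of cells overlap where the mini-bulk libraries do not. Within each of the 4 same-numbered pairs the DASHed cell held more, 0.357 against 0.306%, 0.281 against 0.198%, 0.311 against 0.260% and 0.279 against 0.207%. For scale, the smallest exact permutation p with 2 against 2 libraries is 0.333, and no p is given for a sum over chosen members.

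At equal total counts, more members were seen in DASHed mini-bulk, as were more genes of any kind. Thinned to 837450 counts, the untreated libraries showed 29 and 30 members and the DASHed libraries 41 and 36. Over all genes they showed 13331 and 14130 in untreated and 16231 and 15896 in DASHed mini-bulk. Only totals were matched, and the nuclear share of those totals was larger in DASHed libraries, as given above. Thinned to 1018815 counts, the untreated cells showed 29, 25, 28 and 25 members and the DASHed cells 29, 25, 31 and 22, which overlap. Over all genes the untreated cells showed 10909, 9924, 11491 and 11528 and the DASHed cells 11502, 9897, 12179 and 11943, which also overlap. Without thinning the deeper untreated mini-bulk libraries showed 42 members each. Members at 10 or more counts at the thinned depth numbered 5 and 9 in untreated and 15 in each DASHed mini-bulk library. No count over all genes is given at that minimum, so this is not read as a trait of the members.

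In mini-bulk, the comparison of DASHed with untreated libraries asks whether depletion leaves the levels of genes other than rRNA as they were. After the filter on low counts, 27 members were tested, and at an edgeR adjusted p under 0.05 there were 6 higher and 1 lower in DASHed libraries. Over all 10083 genes tested, 9.9% were called higher and 19.8% lower. The members' median log2 fold change was 0.43, and that of all genes tested 0.03. The 6 that rose were SLC25A29, SLC25A22, SLC25A39, SLC25A6, SLC25A11 and SLC25A37, and the 1 that fell was SLC25A36. Fold changes are on the TMM scale, which sets a mean over genes, with the extremes left out, near 0.

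SLC25A29, which carries basic amino acids, had 37.985 and 48.9 nuclear CPM in untreated and 113 and 101 in DASHed mini-bulk. Both DASHed values lay above both untreated ones, and the log2 fold change was 1.31 (SE 0.32, edgeR adjusted p = 0.0154). SLC25A22 had 126 and 172 nuclear CPM in untreated and 262 and 330 in DASHed mini-bulk, and its log2 fold change was 1.004 (SE 0.23, edgeR adjusted p = 0.0128). The groups did not overlap, but SLC25A22 shares 10.8% of its exonic bases with PANO1 on the opposite strand, so its value is uncertain.

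SLC25A39 (chr17:44319625-44324870) had 258 and 272 nuclear CPM in untreated and 424 and 574 in DASHed mini-bulk. It was the highest member in each of the 4 libraries, and its log2 fold change was 0.93 (SE 0.20, edgeR adjusted p = 0.00895). SLC25A6 had 186 and 161 nuclear CPM in untreated and 273 and 375 in DASHed mini-bulk, with a log2 fold change of 0.92 (SE 0.22, edgeR adjusted p = 0.0144). Both members kept the groups apart, though the 2 DASHed libraries differed more from each other than the untreated ones did.

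SLC25A11, the carrier that exchanges 2-oxoglutarate for malate, had 90.4 and 75.8 nuclear CPM in untreated and 146 and 147 in DASHed mini-bulk. Its log2 fold change was 0.84 (SE 0.25, edgeR adjusted p = 0.0334). SLC25A37 had 244 and 239 nuclear CPM in untreated and 355 and 366 in DASHed mini-bulk, with a log2 fold change of 0.60 (SE 0.17, edgeR adjusted p = 0.0299). It had the smallest fold change of the 6, and its groups did not overlap.

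SLC25A36, a carrier of pyrimidine nucleotides, had 57.6 and 63.9 nuclear CPM in untreated and 9.82 and 3.93 in DASHed mini-bulk. The 2 untreated libraries lay far above both DASHed libraries, and the log2 fold change was -3.05 (SE 0.55, edgeR adjusted p = 0.00452). The lower DASHed value is under the floor of 3 counts for that library, 5.90 nuclear CPM.

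**Figure D2:**
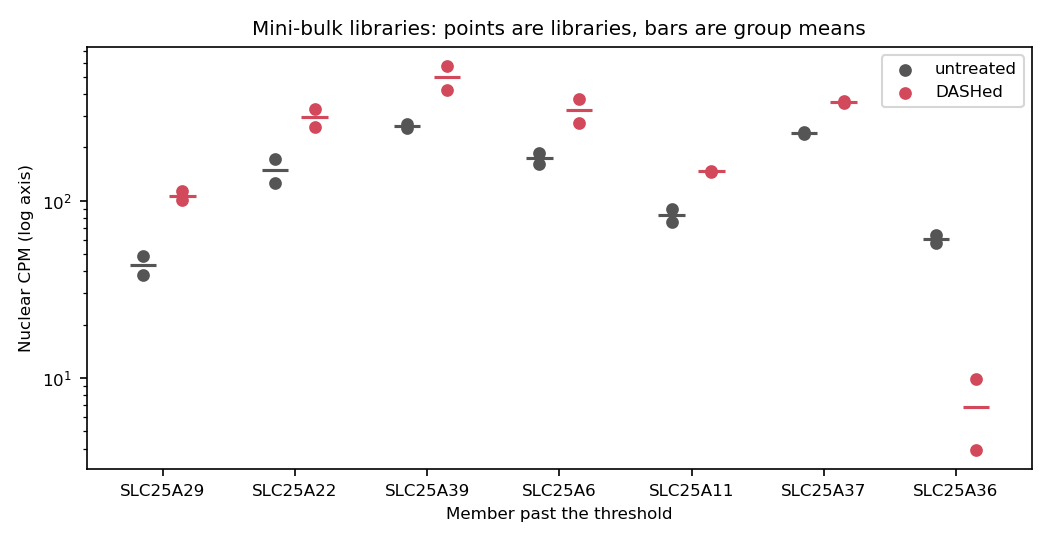
Nuclear CPM (log axis) of the 7 members past the threshold in mini-bulk; points are the 2 untreated and 2 DASHed libraries and bars are group means. The first 6 members sit higher in both DASHed libraries and SLC25A36 sits lower, from 57.6 and 63.9 down to 9.82 and 3.93.

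The calls of higher members rested on both untreated libraries, and calls of higher genes of any kind also became fewer without either of them. Without untreated replicate 1, 18 members were tested, and without untreated replicate 2, 17 members were. SLC25A36 did not pass the filter without untreated replicate 2 and was not tested there. The lone library left in the group is then assumed to vary like the others, and the fold changes of the 6 stayed above 0, from 0.37 for SLC25A37 to 1.51 for SLC25A29 over all 4 omissions.

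Members near the threshold did not pass it. SLC25A3 had 207 and 189 nuclear CPM in untreated and 106 and 146 in DASHed mini-bulk, with a log2 fold change of -0.63 (SE 0.24, edgeR adjusted p = 0.0735). SLC25A23, which carries ATP-Mg and phosphate under the control of calcium, had 90.5 and 121 in untreated and 144 and 210 in DASHed mini-bulk, with 0.75 (SE 0.28, edgeR adjusted p = 0.0683). SLC25A25, a carrier of the same kind, had 7.22 and 13.96 in untreated and 29.4 and 34.6 in DASHed mini-bulk, with 1.55 (SE 0.58, edgeR adjusted p = 0.0722). SLC25A10, with 118 and 142 against 182 and 202, had 0.58 (SE 0.22, edgeR adjusted p = 0.0787). In these 4 members the groups did not overlap, which adds little, since the smallest exact permutation p with 2 against 2 libraries is 0.333. SLC25A10 and SLC25A25 are uncertain, because they share 46.6% and 16.2% of their exonic bases with other genes.

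By role, the calls were spread over the carriers. The adenine nucleotide and ATP-Mg carriers had 5 of 9 listed members tested, with 1 higher and 0 lower and a median log2 fold change of 0.75. The 3 phosphate and metal carriers had 1 higher and 0 lower, with a median of 0.34. Of 3 di- and tricarboxylate carriers tested, 1 was higher and 0 lower, with a median of 0.62, and of 5 amino acid carriers tested, 2 were higher and 0 lower, with a median of 0.22. The 7 cofactor, carnitine, nucleotide and glutathione carriers tested had 1 higher and 1 lower, with a median of -0.18. None of the 3 uncoupling-protein-like carriers passed the filter, and 4 carriers of other or unknown substrate had 0 calls each way.

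Genes around the carriers were read against the same background, 9.9% of all genes called higher and 19.8% lower. Of carriers under other names, 3 were tested and 1 was higher, UCP2, an uncoupling protein, with a log2 fold change of 1.67 (edgeR adjusted p = 0.0309). Among the pyruvate carrier and the outer membrane channels 4 were tested and 1 was lower, VDAC3, a channel of the outer membrane, with -2.16 (edgeR adjusted p = 0.00520). The machinery that imports carriers had 8 genes tested and 1 lower, TIMM10B, a small chaperone of that pathway, with -2.88 (edgeR adjusted p = 0.00429).

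The fold changes of the members followed the GC content of their transcripts. The Spearman correlation between log2 fold change and GC content of the reference transcript was 0.85 across the 27 members and 0.79 across all genes tested, and genes are not independent replicates, since all values come from the same 4 libraries. SLC25A29, at 65.9% GC, and SLC25A36, at 37.4%, stood at the ends. The 6 members below 45% GC had a median log2 fold change of -1.07 and all genes there -1.60. The 8 members from 45 to 55% had 0.02 and all genes -0.10, and the 13 members at 55% or more had 0.75 and all genes 0.76.

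With an offset for GC content, fitted over all genes to these same fold changes, edgeR called none of the members. Such an offset takes out the trend with GC by construction, so fold changes that follow GC content had to shrink. Of the 27, 1 then had an unadjusted p under 0.05, and 3.69% of all genes were still called in either direction, against 29.7% without the offset. SLC25A37, at 50.1% GC, kept a log2 fold change of 0.71 (SE 0.17, edgeR adjusted p = 0.0609), the smallest adjusted p among the members. SLC25A36 had -1.09 (SE 0.57, edgeR adjusted p = 0.411), SLC25A29 0.42 and SLC25A6 0.03. The median of the members was 0.07 with the offset.

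**Figure D3:**
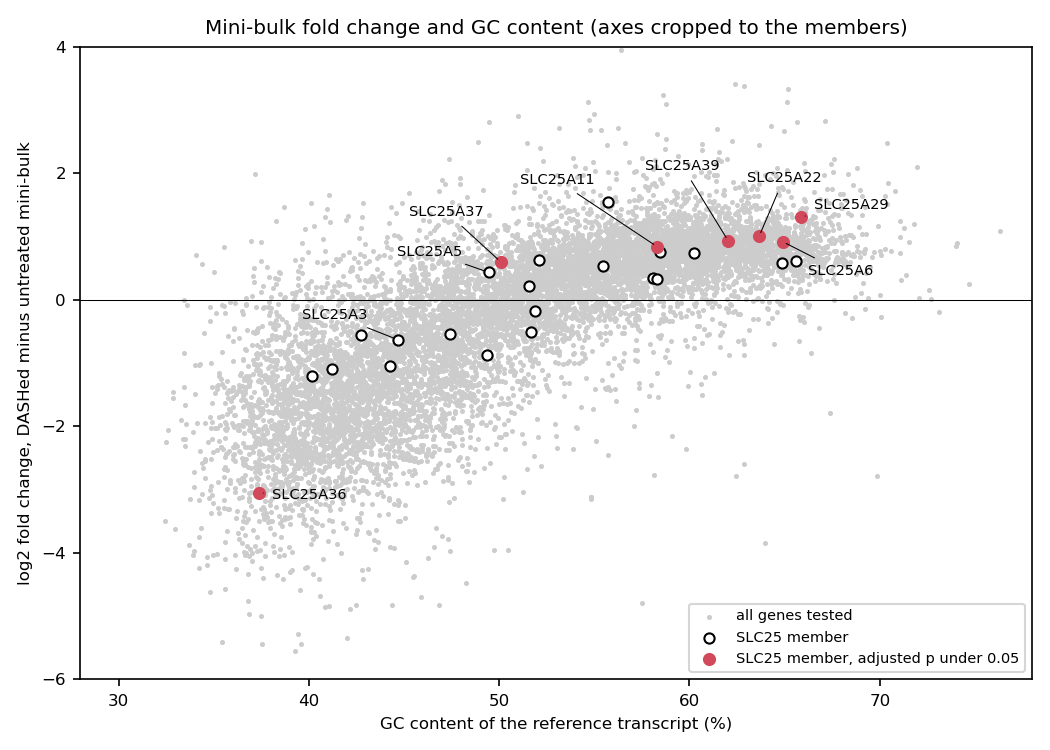
Log2 fold change of DASHed over untreated mini-bulk (vertical) against GC content of the reference transcript in percent (horizontal); grey points are all genes tested, open circles SLC25 members and red points members past an adjusted p of 0.05. Members lie within the cloud of all genes, from SLC25A36 at 37.4% GC to SLC25A29 at 65.9%.

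In single cells each library is 1 cell, so a group counts as 1 sample and no test was made. Summed over 4 cells a group and set against the median of all genes with at least 20 counts, 8 of 37 members were at least 2-fold higher in DASHed cells and 6 at least 2-fold lower. Over all 13469 such genes 12.6% were higher and 23.7% lower, and the members' median log2 ratio was -0.04. The split depended on how the cells were joined. As a mean over the 4 same-numbered pairs of cells it was 12 higher and 2 lower. With each pair centred only on genes with 20 counts in that pair it was 1 higher and 10 lower. No share of all genes past 2-fold is given for these settings, so a shift of the members cannot be told from one of all genes.

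The highest ratios among members with at least 100 counts included those of SLC25A10, SLC25A39 and SLC25A1. SLC25A39 had 183.7, 186, 279.7 and 501 nuclear CPM in untreated cells 1 to 4 and 325, 275.3, 366 and 921 in DASHed cells 1 to 4, a ratio of 2.50 to the median gene (95% interval 2.33 to 2.69). Its log2 ratio of 1.30 became 0.85 without DASHed cell 4, its highest cell. The exact intervals of these ratios cover counting error only, since reads of a library amplified by PCR are not independent molecules. SLC25A1, the citrate carrier, had 4.99, 9.43, 27.9 and 122 in untreated and 16.2, 15.7, 37.9 and 183 in DASHed cells, with most of its counts in cell 4. Its log2 ratio of 1.17 became -0.11 without DASHed cell 4 and 2.31 without untreated cell 4. Omissions of 1 cell, here and below, leave its same-numbered partner in and so break a pair. Without both cells of number 1, 2, 3 or 4, the log2 ratio of SLC25A1 was 1.08, 1.005, 1.24 or 0.90.

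Among members with at least 100 counts, the lowest ratios belonged to SLC25A30, SLC25A36, SLC25A43 and SLC25A24. SLC25A30, an uncoupling-protein-like carrier, had 49.0, 0, 15.4 and 48.7 nuclear CPM in untreated and 16.2, 1.97, 3.79 and 6.03 in DASHed cells, a ratio of 0.37 (95% interval 0.23 to 0.58). SLC25A36 had 60.9, 81.2, 6.76 and 0 in untreated and 0, 52.8, 0.947 and 0 in DASHed cells, a ratio of 0.40 (95% interval 0.28 to 0.57). Its log2 ratio of -1.29 became -3.93 without DASHed cell 2 and -0.55 without untreated cell 2. SLC25A43 had 117, 24.6, 28.7 and 0 in untreated and 14.9, 17.1, 25.6 and 0 in DASHed cells. Its log2 ratio of -0.94 became -0.09 without untreated cell 1 and -0.37 without DASHed cell 4, and the lowest value over all omissions was -1.61. SLC25A30, SLC25A36 and SLC25A24 stand at 40.2%, 37.4% and 38.7% GC, and SLC25A43 at 49.4%. A relation of single-cell ratios to GC content was not tested.

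Compared pair by pair, most genes called higher in mini-bulk, members or not, were also higher in the cells. With each pair centred on genes with 20 counts in it, SLC25A6, SLC25A11, SLC25A22, SLC25A23, SLC25A29, SLC25A37 and SLC25A39 lay above 0 in 4 of 4 pairs, which is 7 of the 8 members with enough counts in every pair. Of all 3545 such genes 36.8% did so, and of the 741 of them called higher in mini-bulk 91% did. The 6 members called higher in mini-bulk were all among the 7, which is near that 91%, and SLC25A23 was not called there. Centred on all genes with 20 counts over the 8 cells, 8 of 8 members and 59.7% of the genes lay above 0 in every pair. This comparison was chosen after the data were seen. SLC25A22 had 373, 270.5, 430.3 and 372 nuclear CPM in untreated and 514, 522, 640.0 and 476 in DASHed cells, so its lowest DASHed cell lay above its highest untreated cell. SLC25A37 had 254, 205, 237 and 109 in untreated and 299, 284, 320.3 and 145 in DASHed cells, with cell 4 lowest in both groups.

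Most members were within 2-fold between single cells and mini-bulk, after centring on the median of all genes. In untreated libraries 4 of 38 members were at least 2-fold higher in cells and 1 at least 2-fold lower, where 12.6% and 13.2% of all genes were. In DASHed libraries 3 of 29 were higher and 3 lower, where 18.4% of all genes were in each direction.

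Many members differed by large factors from cell to cell. Of 22 members with at least 20 counts in the highest cell of both groups, 15 (68.2%) were at least 4-fold apart between the highest and lowest cell in both groups with the same cell number highest. Among all such genes 68.5% met this rule, so the members were near the background. The same number was highest in both groups for 19 of 22 members (86.4%) and for 83.9% of all such genes. The labels do not say what a shared cell number marks.

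Cell 1 was highest for 6 of the 15, SLC25A5, SLC25A11, SLC25A15, SLC25A24, SLC25A26 and SLC25A29. SLC25A11 had 348, 146, 21.98 and 97.9 nuclear CPM in untreated cells 1 to 4 and 497, 187, 53.02 and 139 in DASHed cells, high in cell 1 and low in cell 3 both times. SLC25A29 had 177, 65.3, 54.2 and 27.1 in untreated and 299.7, 74.2, 59.5 and 71.4 in DASHed cells. SLC25A15, a carrier of ornithine, had 67.9, 0, 27.9 and 0 in untreated and 41.04, 0, 3.79 and 0 in DASHed cells, so cells 2 and 4 held no count in either library. SLC25A24, an ATP-Mg carrier, had 77.9, 21.03, 6.76 and 0.874 in untreated and 31.1, 17.1, 2.84 and 0 in DASHed cells. SLC25A26, which carries S-adenosylmethionine, had 50.9, 12.3, 24.5 and 0 in untreated and 58.5, 17.1, 8.52 and 0 in DASHed cells. SLC25A24 and SLC25A26 share 13.7% and 15.5% of their exonic bases with genes on the opposite strand and are uncertain.

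Cell 2 was highest for SLC25A4, SLC25A23, SLC25A25, SLC25A36 and SLC25A44. SLC25A44, a carrier of branched-chain amino acids, had 3.99, 179.9, 42.6 and 0 nuclear CPM in untreated and 7.47, 339.5, 57.8 and 0 in DASHed cells. SLC25A25 had 0, 74.5, 0 and 0 in untreated and 7.96, 124.5, 0 and 0 in DASHed cells, almost all of it in cell 2. SLC25A23 had 126, 196, 191 and 19.9 in untreated and 206, 255, 239.5 and 32.95 in DASHed cells, and there cell 4 stood apart as the low one.

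Cell 3 was highest for SLC25A10, and cell 4 for SLC25A1 and SLC25A32. SLC25A10 had 80.8, 0.725, 229 and 72.8 nuclear CPM in untreated and 126, 0, 341 and 142 in DASHed cells. Cell 2 held under 1 nuclear CPM of it in both libraries. SLC25A32, which carries folate or flavin, had 20.2, 0.731, 11.1 and 196 in untreated and 0, 0, 3.79 and 91.4 in DASHed cells. SLC25A32 shares 80.8% of its exonic bases with other genes and is uncertain. Of the members with at least 20 counts in the highest cell of both groups, those that stayed within 4-fold over the cells of each group were SLC25A3, SLC25A6, SLC25A22, SLC25A37 and SLC25A39, all among the 6 highest per kb in mini-bulk.

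**Figure D4:**
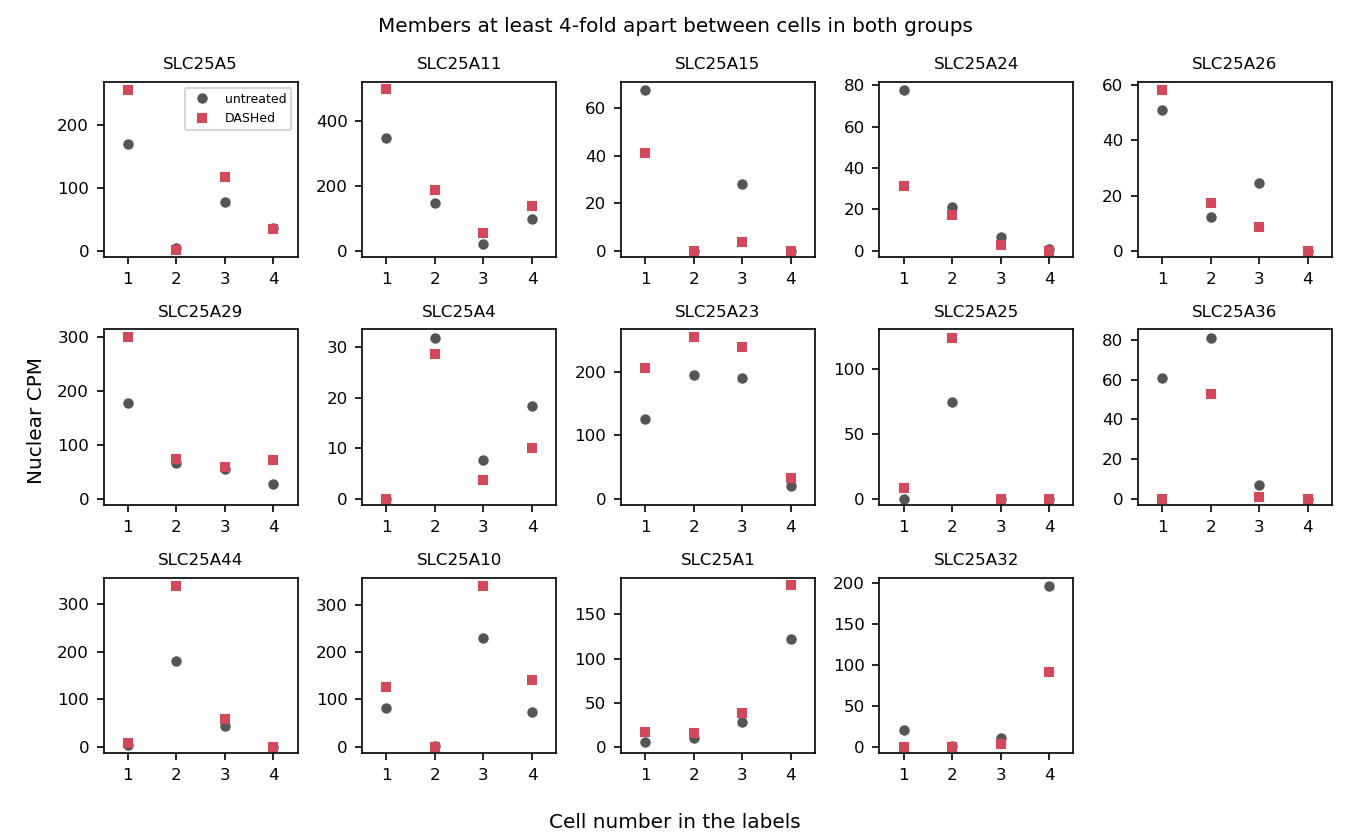
Nuclear CPM of 14 of the members that differ at least 4-fold between cells in both groups, by the cell number in the labels; grey circles are untreated and red squares DASHed cells. Untreated and DASHed cells of 1 number tend to stand high or low together, as for SLC25A44 with 179.9 and 339.5 in cell 2 and 0 in cell 4.

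The 3 adenine nucleotide translocase genes showed this between members as well. SLC25A6 had 219, 231, 152 and 213 nuclear CPM in untreated and 297, 375, 215 and 300.7 in DASHed cells, without a large spread. SLC25A5 had 169.8, 3.63, 77.8 and 35.8 in untreated and 257, 1.43, 117 and 35.2 in DASHed cells, and in mini-bulk it had 47.2 and 43.3 in untreated and 67.1 and 53.1 in DASHed libraries. SLC25A4, the gene of ANT1, had 0, 31.9, 7.62 and 18.4 in untreated and 0, 28.7, 3.79 and 10.1 in DASHed cells.

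Per kb, SLC25A6 made up 69.9 and 67.5% of the 3 in untreated and 71.4 and 80.3% in DASHed mini-bulk. In cells 1 to 4 its share was 44.3, 91.8, 54.0 and 76.2% in untreated and 41.6, 96.0, 52.9 and 83.0% in DASHed cells. Cell 1 therefore held more SLC25A5 than SLC25A6 per kb in both libraries, and cell 2 almost no SLC25A5. SLC25A5 shares 15.1% of its exonic bases with SLC25A5-AS1 and 31.8% of its 31-base words with other genes, among them its pseudogenes, so its counts are uncertain. The fourth translocase gene, SLC25A31, was at 0 in all 12 libraries.

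**Figure D5:**
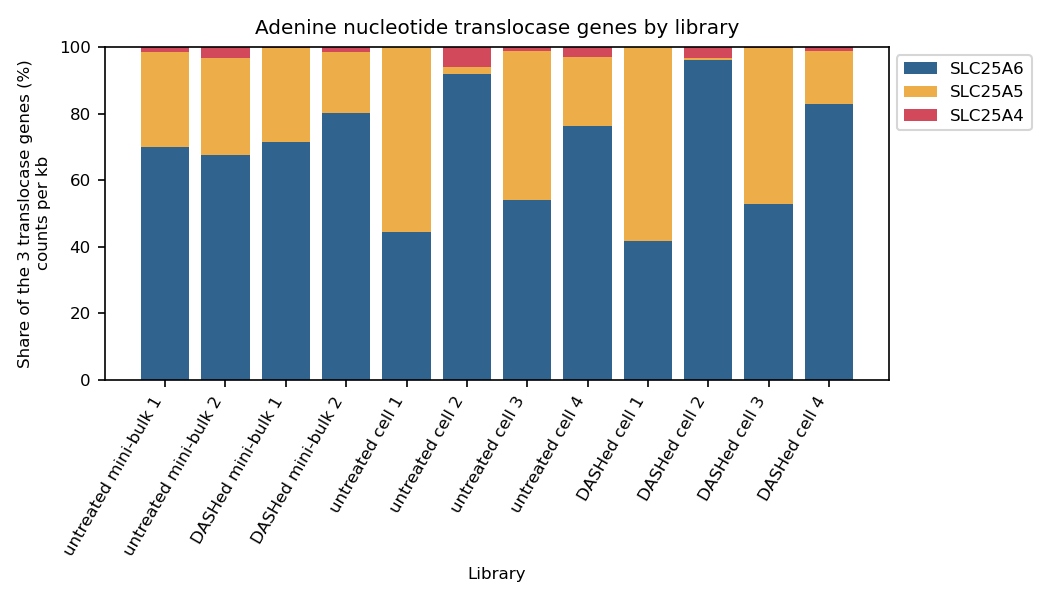
Share in percent of the counts per kb of SLC25A4, SLC25A5 and SLC25A6 taken by each gene (vertical), by library (horizontal). SLC25A6 holds 67.5 to 80.3% in mini-bulk, and in cells its share ranges from 41.6% in DASHed cell 1 to 96.0% in DASHed cell 2.

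Most of the remaining members were low. SLC25A12 and SLC25A13, the aspartate and glutamate carriers, had 111 and 49.0 counts over all 12 libraries, SLC25A20, the carnitine carrier, had 41 and SLC25A38, a glycine carrier, had 110.3. SLC25A28, mitoferrin-2, was not low and ranked 11 per kb over the mini-bulk libraries. It had 412 counts and a mini-bulk log2 fold change of 0.34 (SE 0.49, edgeR adjusted p = 0.615). SLC25A52, which is 97.64% identical to SLC25A51 over 891 aligned coding bases, had 1 count in all and SLC25A51 had 65.5, and how reads shared by both were divided cannot be told from the table. At these depths a member at 0 in a library was not detected, which does not show that it was absent.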

How the data were processed

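For the 12 libraries the authors deposited estimated counts by gene, without scaling to depth. Per the submitters' processing notes, kallisto 0.46.2 was used. Build, annotation and strand setting: not given in the sources used here. Reads that match several transcripts are divided among them by kallisto, so overlapping or near-identical genes affect each other. Members sharing at least 10% of exonic bases or of 31-base words with other genes are called uncertain.

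The members and lists were chosen with earlier results of these data known. The nuclear CPM scale and the reference transcripts (the longest principal one, GENCODE 29) were chosen after the files were seen. Named members are those past an adjusted p of 0.05 in mini-bulk (up to 12 each way), the 6 highest per kb, those that differ between cells, and the 4 of largest single-cell ratio each way with at least 100 counts. 1 member that the rule names is counted with the others but not reported here.

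Estimated counts were rounded, and edgeR 4.0.16 under R 4.3.3 gave the tests (its quasi-likelihood fit), using TMM factors (0.442 and 0.553 untreated, 1.96 and 2.09 DASHed), the default filter and Benjamini-Hochberg adjustment over all genes, without a replicate block. The procedure was tested on simulated data. Single-cell ratios used summed CPM with a pseudocount of 1, minus the median of all genes (2.20-fold) with at least 20 counts.

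The labels give single cells numbers 1 to 4 in both groups without saying what they mark. Deviations from the group mean correlated at 0.913 to 0.923 for same-numbered cells and at -0.386 to -0.222 for cells with different numbers (9356 genes), so the numbers were treated as pairs. For mini-bulk there are only 2 pairs, with 0.46 and -0.46, and the number was taken as a name. Alternatives were other scalings, DESeq2 1.42.0, no filter, a GC offset, replicate blocks and leaving out each library.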

Additional observations from a re-analysis of the deposited data

Results flagged for a closer look

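Among the 21 named members, 11 values of single cells stood far from the other 3 cells of their group by Dixon's gap test, over 48 groups examined, and chance flags about 1 group in 20. They belong to 9 members. That rate is no yardstick here, because 14 of the 21 were named for a difference of at least 4-fold between cells, and the cells are not replicates of a condition. In DASHed cell 1 these were SLC25A15 with 41.04 nuclear CPM (next 3.79) and SLC25A29 with 299.7 (next 74.2). In cell 2 they were SLC25A25 with 74.52 in the untreated and 124.5 in the DASHed cell, SLC25A36 with 52.78 in the DASHed cell and SLC25A44 with 339.5 in the DASHed cell. SLC25A3 had 281.4 in DASHed cell 3, where the next cell had 182.6. In DASHed cell 4 SLC25A1 had 183.1 and SLC25A39 had 921.3, and SLC25A32 had 196.5 in untreated and 91.38 in DASHed cell 4.

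SLC25A3, the phosphate carrier, had values of opposite sign in the 2 inputs under some centrings and not under others. Its mini-bulk log2 fold change was -0.633 with both DASHed libraries lower, which did not pass the test (edgeR adjusted p = 0.0735), and its mean log2 ratio over the 4 same-numbered pairs of cells was 0.941 with all 4 pairs above 0. The difference was not tested. From summed counts its log2 ratio in cells was 0.19, and -0.63 when centred on the 300 genes nearest in expression, while its nuclear CPM over all cells was 206 in DASHed and 259 in untreated cells. With each pair centred only on genes with 20 counts in it, a centring chosen after the first result was seen, the mean was -0.02 and 2 of 4 pairs were above 0.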

How the results depend on the processing

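Scaling to total counts alone moved the median of all genes to 2.04 and the members called to 18 higher and 0 lower, against 6 and 1. Of all 10083 genes 6718 were then called higher and 138 lower, against 998 and 1999. This scaling turned the fold changes of SLC25A3 (1.40), SLC25A26 (1.47), SLC25A32 (0.78) and SLC25A43 (1.16) positive. With the GC offset 0 members were called in either direction, and SLC25A1 (-0.27), SLC25A3 (0.42), SLC25A10 (-0.31), SLC25A23 (-0.0137), SLC25A26 (0.0166) and SLC25A32 (0.46) changed sign. Leaving rRNA, the lincRNA genes inside 18S and mitochondrial genes out before TMM gave 8 members higher and 2 lower. Of all 9270 genes tested in that setting 1272 were higher and 2102 lower. Leaving out a mini-bulk library changed the number of members called, except for DASHed replicate 2. It turned SLC25A44 to -0.18 without untreated replicate 1 (range to 0.44). DESeq2 gave 5 members higher and 1 lower, and of all 27180 genes 754 higher and 1036 lower.

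With the replicate block, 10 members were called higher and 3 lower in mini-bulk, and of all 10083 genes 2359 higher and 3044 lower. The labels tie the 2 samples of a number by that number alone, and their deviations correlated at 0.46 over 8918 genes. With the replicate block and the GC offset together 1 member was higher and 0 lower, and of all 10083 genes 838 higher and 920 lower. SLC25A1 (-0.28), SLC25A3 (0.42), SLC25A10 (-0.31), SLC25A23 (-0.0133), SLC25A26 (0.0104) and SLC25A32 (0.40) again changed sign. In single cells the replicate block as planned gave 12 members at least 2-fold higher and 2 lower. It centres each pair on genes of which 1572 to 2962 had no count in either cell of the pair. A second centring, on genes with 20 counts in the pair, was defined after that result was seen, and gave 1 higher and 10 lower. Neither is preferred here, no share of all genes past 2-fold is given for either, and the counts of single-cell members past 2-fold are not stable.

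The other single-cell settings are set against 8 higher and 6 lower. Centring on the 300 genes nearest in expression gave 0 higher and 4 lower, and no centring gave 19 and 0. A pseudocount of 0.1 CPM gave 4 higher and 8 lower, and a minimum of 100 counts gave 0 and 5. For these settings no share over all genes is given. Leaving out cells or pairs gave 5 to 12 higher and 5 to 10 lower, again with no share over all genes. SLC25A1 ranged from -0.11 without DASHed cell 4 to 2.31 without untreated cell 4, and from 0.90 to 1.24 with whole pairs left out. The members' summed share, DASHed over untreated, was 5.70 in mini-bulk (5.08 to 6.50 leaving out libraries) and 4.09 in cells (3.90 to 4.26), and 1.39 and 1.27 as a share of nuclear counts. Members detected, DASHed over untreated, were 1.31 in mini-bulk and 1 in cells, 2.14 and 1.44 at a minimum of 10 counts, and 0.917 in mini-bulk with no thinning. For these ratios none over all genes is given. Counts under 3 in a library limit what can be said of the low members.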
